A study of Mus musculus with 82 samples.

Results

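Skin of mice 3 to 4 weeks after a whole-body X-ray dose of 3 Gy was compared with skin of sham mice of the same time points. All arrays labelled 3 Gy at day 21 (d21) or day 28 (d28) were taken, together with all 0 Gy arrays of those days, which gave 11 of the 82 arrays of the series. Of these, 7 came from 4 mice after 3 Gy (M012 at d21, and M013, M014 and M015 at both times) and 4 came from 2 sham mice (M002 and M003 at both times). The mice were male C57BL/6, 8 weeks old at purchase and under 14 weeks at the last sampling. Exposure took place under ketamine and xylazine anesthesia, and sham mice were carried to the same facility and returned without a dose. At every time point mice of both groups were anesthetized, clipped on the back and biopsied, so each d21 or d28 biopsy came from a back that had been clipped and sampled at earlier time points. A biopsy covered 1 cm2 and held epidermis, dermis, hair follicles, fat, muscle and blood. Its RNA was labeled with Cy5 and hybridized, beside purchased mouse reference RNA labeled with Cy3, to whole-genome arrays made by Agilent. The question was which transcripts differed late after a dose that the mice survived, among them the collagen and clotting genes that the study followed.

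Dermal fibroblasts make the collagens and small proteoglycans of the skin, and macrophages resident in the dermis clear debris and steer repair. Ionizing radiation acts on skin through DNA breaks and the transcription factor p53, and weeks later through matrix turnover and inflammation. Skin also holds programs that move for other reasons, namely the hair cycle, the circadian clock and the immediate early genes, transcription factors such as Fos and Junb whose mRNA appears within minutes of a stimulus.

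Every array was read on an Agilent G2505C scanner. Between 44% and 57.8% of probes were well above background in Cy5, with a median of 54.5% over the 11 arrays. Epidermal keratin and envelope genes stood at 4.56 to 6.08 above the reference RNA (mean log2 ratio of 14 genes) on every array, so the defining genes of skin were present throughout. Muscle markers stood at 4.59 to 6.65 on 10 arrays and at 2.07 on that of M015 at d21, so the amount of muscle RNA in the biopsies was uneven. A pair of further arrays stood apart. Genes of the growing hair follicle, mostly hair shaft and root sheath keratins, had a mean log2 ratio of 5.94 on the array of M014 at d28 and of -0.01 to 1.76 on the others, and the median correlation of that array with the others was 0.687, against 0.768 to 0.846 for the rest. The array of M013 at d21 had the highest levels of neutrophil genes (4.15, against 0.03 to 2.12 elsewhere) and of interferon-stimulated genes (1.07, against -0.89 to -0.03). Only 3 of 12 neutrophil genes were tested, namely S100a8, S100a9 and Mpo. S100a8 and S100a9 are also in the list of inflammation genes. The background correction also narrowed both arrays of M014: the interquartile range of their log2 ratios over the tested probes was 0.48 and 0.50, against 0.71 to 1.06 on the other arrays, and 0.95 and 0.87 without background correction. The leading genes and list medians were therefore also computed without it. Values without these 3 arrays (M014 at d28, M013 at d21 and M015 at d21) are given for the lists of cell types and pathways whose medians lay farthest from 0.

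No probe passed the threshold of the study (p adjusted by Benjamini-Hochberg under 0.05 together with a 2-fold change or more) when 3 Gy was compared with sham over both days by limma, with time point as a term and mouse as a random block. Of 23120 probes tested, for 13025 genes with a symbol, 0 were called and the lowest adjusted p was 0.887. At an unadjusted p under 0.05 there were 1211 probes (5.24%), and 52 of them (0.225% of those tested) were also at least 2-fold higher after 3 Gy and 68 (0.294%) at least 2-fold lower. The median standard error of a log2 fold change was 0.21. A fit of group means over all 82 arrays borrows the spread of other doses, times and a further scanner. It had no block on mouse, so that biopsies of the same mouse counted as separate, and it called 12 probes. Among them Trib1, Bcar1, Per1, Csrnp1, Btg1 and Ube2o were higher and Akr1b3, Mrpl51, Mrpl42, Ifnar2 and Spon2 lower after 3 Gy. With 4 mice against 2, an exact permutation test over mouse means has 15 arrangements and its smallest two-sided p is 0.0667. The genes described from here on are therefore values below the threshold of the test. For each direction the 12 genes with the smallest unadjusted p among those changed 2-fold or more are named, and all of them had an adjusted p of 0.887 in limma.

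**Figure D1:**
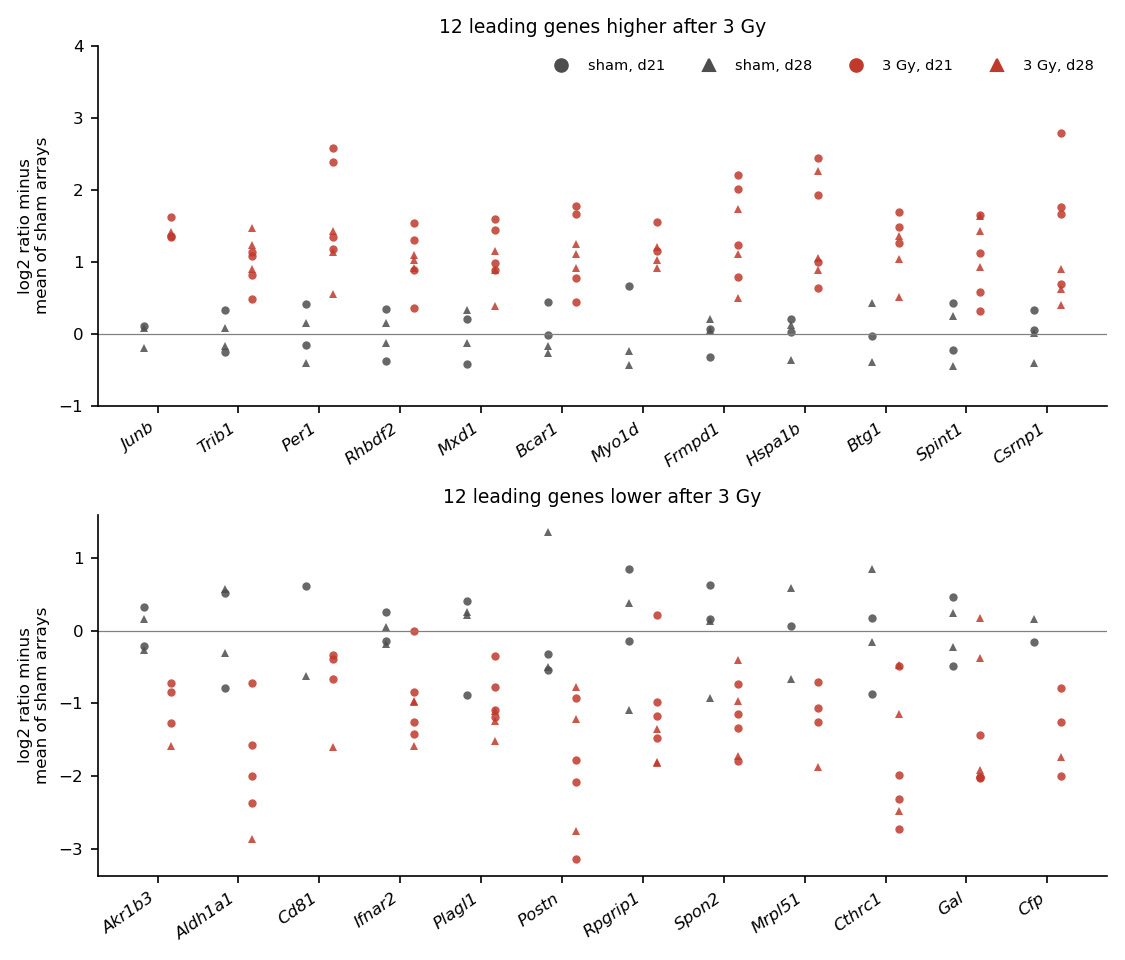
Log2 ratio of biopsy to reference RNA on each array, minus the mean of the sham arrays of that gene, for the 12 leading genes in each direction; grey marks are sham, red marks 3 Gy, circles d21 and triangles d28, and values that the scanner software called outliers are not drawn. For 11 of the 12 genes above and 4 of the 12 below, the arrays of the 2 doses did not overlap.

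Among the genes higher after 3 Gy were immediate early and stress transcripts. Junb, a subunit of the AP-1 transcription factor, led the list. Its log2 ratio was -2.15, -2.12 and -2.43 on the sham arrays and -0.61, -0.87, -0.82 and -0.89 on the 3 Gy arrays that the scanner software did not call outliers. Its difference was 1.39 (SE 0.20, 95% CI 0.92 to 1.86), a 2.63-fold higher level. With the outlier calls set aside all 4 sham arrays lay between -2.43 and -2.01 and all 7 arrays of 3 Gy between -1.47 and -0.09, so the doses did not overlap. Per1, a repressor of the circadian clock that is also an early response gene, stood at -0.84, -1.10, -1.40 and -1.66 on the sham arrays and between -0.70 and 1.33, with a median of 0.09, on the 7 arrays of 3 Gy, a difference of 1.48 (SE 0.32). Its arrays did not overlap between doses, but the margin was narrow, from -0.84 to -0.70. Csrnp1, a nuclear protein induced by growth signals, was 1.20 higher (SE 0.34) and Btg1, an antiproliferative early gene, 1.16 higher (SE 0.29). Trib1, a pseudokinase that directs proteins to degradation, lay at -1.75 to -1.16 in sham and -1.01 to -0.03 after 3 Gy, a difference of 1.03 (SE 0.20). For Btg1 the value leaned on spots left out as outliers: with them it was 0.89 higher, and M013 at d21 (-0.36) lay among the sham arrays.

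Promoter stretches are shown for Junb, Per1, Btg1 and Csrnp1, the leading higher genes whose upstream bases hold the core letters of the cAMP response element. They were picked by this match and do not stand for all the genes above. Trib1 is not among them. The sequences are those of RefSeq on GRCm38.p6, read 5′ to 3′ on the strand of the gene, upstream of the start site, with these letters (TGACG, or CGTCA where it lies on the other strand) in capitals and, in Per1, also the E-box CACGTG. They lie at chr8:84978830-84978874 (minus strand) for Junb, chr11:69098699-69098808 (plus strand) for Per1, chr10:96616794-96616922 (plus strand) for Btg1 and chr9:119984860-119984904 (minus strand) for Csrnp1.
Junb: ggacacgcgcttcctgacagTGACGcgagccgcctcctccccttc
Per1: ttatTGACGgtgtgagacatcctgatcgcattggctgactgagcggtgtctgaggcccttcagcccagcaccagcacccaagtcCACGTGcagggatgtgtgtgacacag
Btg1: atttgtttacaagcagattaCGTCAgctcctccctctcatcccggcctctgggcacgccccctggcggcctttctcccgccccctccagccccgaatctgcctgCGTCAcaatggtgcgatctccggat
Csrnp1: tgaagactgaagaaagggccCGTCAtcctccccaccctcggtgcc
TGACG was present on either strand in the 250 bases upstream of the start site of 4 of the 9 leading higher genes and 0 of the 9 leading lower genes that have an entry, and of 17.8% of all 27025 genes. The E-box was found in 6.04% of all genes and, among the leading genes, in Per1 and Plagl1. A match of these letters is a description and not a binding site.

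The heat shock genes Hspa1b and Hspa1a encode the inducible chaperone HSP70. Hspa1b stood at 0.45 to 1.01 on the sham arrays and 1.44 to 3.25, with a median of 1.86, on those of 3 Gy, which do not overlap. The difference was 1.45 (SE 0.38). Hspa1a was 1.26 higher (SE 0.38) with overlapping arrays, 1.53 to 3.30 in sham and 2.64 to 4.65 after 3 Gy. These are near-identical copies, and how far their probes share signal is uncertain; a further Hspa1b probe was 0.58 higher (SE 0.28). The upstream stretches of both genes were letter for letter the same over 48 bases around a heat shock element (GAANNTTC, present in 6.79% of all genes upstream of the start site), given in capitals, at chr17:34959315-34959362 for Hspa1b and chr17:34972233-34972280 for Hspa1a, both on the minus strand.
Hspa1b: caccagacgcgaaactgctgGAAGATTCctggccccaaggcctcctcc
Hspa1a: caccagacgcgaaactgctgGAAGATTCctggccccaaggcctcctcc

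The other leading higher genes belong to epithelia and signaling. Spint1, an inhibitor of membrane serine proteases of epithelia, lay between 2.16 and 3.03 in sham and between 2.93 and 4.25 after 3 Gy and so overlapped on 1 array; it was 1.11 higher (SE 0.30), and its other probe 1.00 higher. Rhbdf2, which controls the maturation of the TNF-releasing protease ADAM17, was 1.02 higher (SE 0.23), and Mxd1, a MAX partner that opposes MYC, 1.03 higher (SE 0.24). Bcar1, an adaptor of integrin signaling, was 1.12 higher (SE 0.26), and Frmpd1 1.36 higher (SE 0.33). The unconventional myosin Myo1d was 1.14 higher (SE 0.24) without its outlier spots but 0.63 higher with them, with overlap. Not all probes of these genes moved alike: the other probe was 0.30 higher for Mxd1, 0.02 for Myo1d, 0.35 for Btg1 and 0.15 for Csrnp1. Array values of the doses did not overlap, 3 Gy higher, for 11 of the 12, beside 0.281% of all probes tested, and mouse means did not overlap for all 10 that had every mouse, beside 7.44% of all probes; as the genes were picked by p on these arrays, nothing is read from either count. With outlier spots kept, the arrays of 9 of the 12 did not overlap, Btg1 and Myo1d being the ones that then did. Without background correction all 12 were at least as high, from 1.09 for Trib1 to 1.75 for Hspa1b.

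After these values were seen, 4 groups of stress and clock genes were looked up in full. Of 18 immediate early genes 17 were tested, and 17 of 17 had a positive difference, with a median of 0.88 and a range of 0.19 to 1.39. Of these 11 had an unadjusted p under 0.05, where 2.91% of all genes tested were higher at that level, and 0 passed after adjustment; as the list was drawn up after its leading members Junb, Trib1 and Csrnp1 had been seen, nothing is read from these counts. Atf3, a stress-induced transcription factor, was 1.39 higher (SE 0.53). Its sham arrays lay within -0.81 to -0.59. Its 3 Gy arrays split into 5 between 0.89 and 1.75 and a pair at -1.35 and -0.84. Earlier sham biopsies read on the same scanner all lay above that sham range. Their Atf3 stood at -0.23 at hour 2 and 1.6 at day 4 (1 array each) and at -0.42 to 0.85 at day 7 (2 arrays). In the same order their Fos stood at 0.92, 1.74 and -1.5 to 0.75. Fos was 1.20 higher (SE 0.57) over a wide spread, -2.98 to -0.71 in sham and -1.85 to 1.90 after 3 Gy, and Egr1 1.21 higher (SE 0.37). The epithelial regulator Klf4 was 0.88 higher (SE 0.24) and Ier2 0.77 higher (SE 0.21). In contrast, the clock genes as a group stood at a median of 0.20, 10 of 13 above 0. The low-p members were Per1, Dbp (0.87, SE 0.26) and Cry2 (0.50, SE 0.19), while the core activators Arntl (-0.25, SE 0.24) and Clock (-0.41, SE 0.23) and the repressor Per2 (0.10, SE 0.15) had intervals that span 0. Among 9 heat shock genes the median was 0.00; beside Hspa1a and Hspa1b only the cochaperone Dnajb1 had a low p (0.76, SE 0.27), and Hspe1, a mitochondrial chaperonin, stood lowest (-0.47, SE 0.23). Hspa8 was at -0.15 (SE 0.21) and Hsp90aa1 at -0.26 (SE 0.36); with the outlier spots kept, the mean log2 ratio of Hsp90aa1 was -1.92 in both groups. Of 6 genes induced by glucocorticoids 4 were tested, with a median of 0.46 and 1 at an unadjusted p under 0.05. Ddit4, an inhibitor of mTOR, was 0.85 higher (SE 0.19), Tsc22d3 0.89 (SE 0.41) and Fkbp5 0.07 (SE 0.22), while Cdkn1a stood at -0.03 (SE 0.40). The labels do not give the hour of each biopsy.

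**Figure D2:**
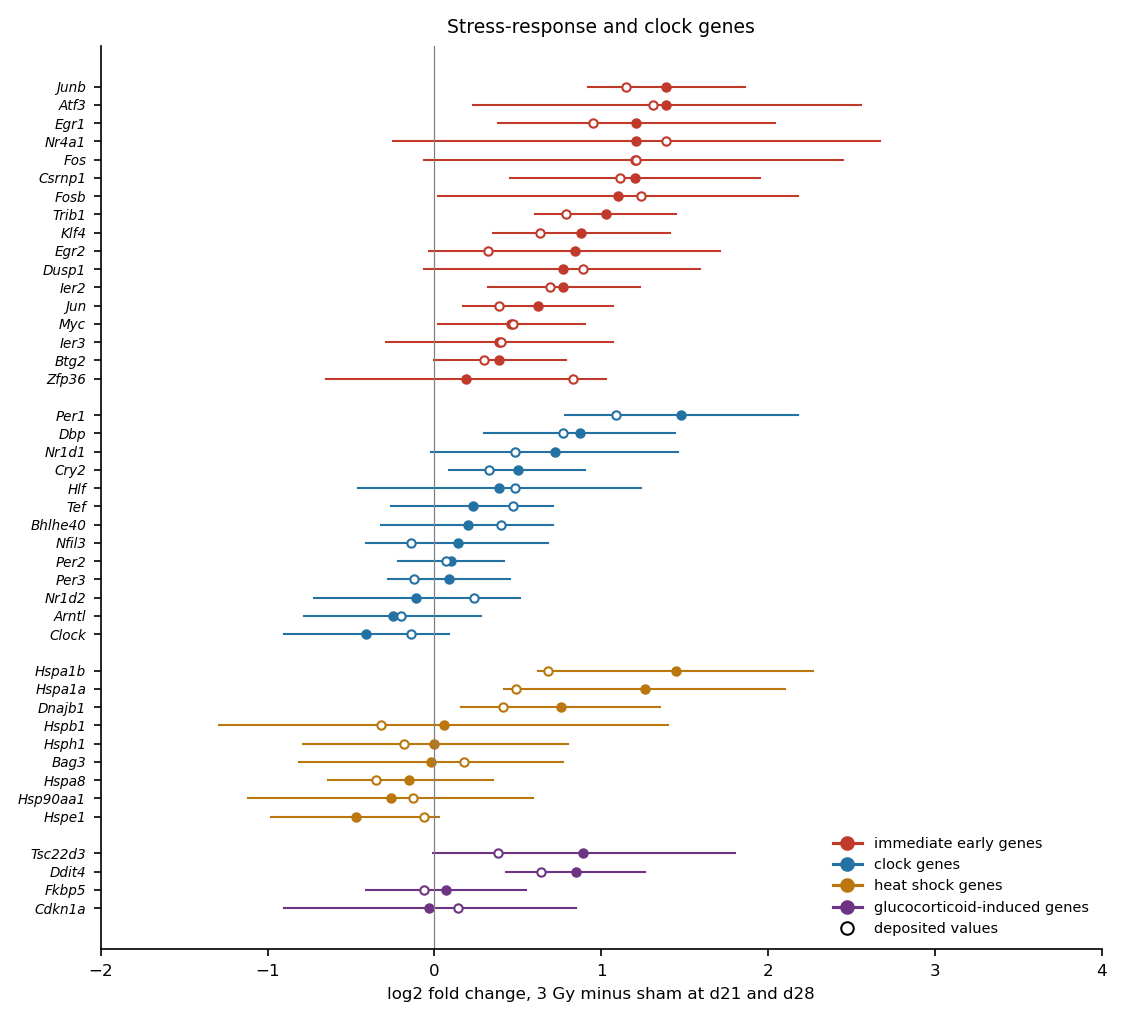
Log2 fold change of 3 Gy over sham at d21 and d28 for immediate early, clock, heat shock and glucocorticoid-induced genes, with filled points and 95% confidence intervals from limma on the scanner values and open points from the deposited values. The 17 immediate early genes lie between 0.19 and 1.39, whereas the clock genes spread from -0.41 to 1.48.

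Among the leading genes lower after 3 Gy, Postn, Spon2 and Cthrc1 encode secreted proteins of the matrix. Postn, the matrix protein periostin, had log2 ratios of 4.18, 5.87, 3.97 and 4.01 on the sham arrays and 1.36 to 3.73, with a median of 2.73, after 3 Gy. Every 3 Gy array was thus below every sham array, and the difference was -1.78 (SE 0.50, 95% CI -2.89 to -0.67). Cthrc1, a collagen-linked secreted protein of activated fibroblasts, was 1.57 to 3.29 in sham and -0.29 to 1.97 after 3 Gy, a difference of -1.62 (SE 0.48) with overlap. Spon2, a secreted matrix and pattern recognition protein, was -0.68 to 0.88 in sham and -1.54 to -0.15 after 3 Gy, a difference of -1.17 (SE 0.34) with overlap. The aldehyde dehydrogenase Aldh1a1, which makes retinoic acid, had the largest size of the 12. It stood at 2.48, 2.96, 3.79 and 3.84 on the sham arrays and 0.40 to 2.55 on 5 arrays of 3 Gy, a difference of -1.99 (SE 0.44); with the 2 spots called outliers (2.19 and 2.64) it was -1.59. The array of M013 at d21, at 2.55, lay above the lowest sham array.

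The aldose reductase gene Akr1b3 had a difference of -1.19 (SE 0.23), or -0.93 with its outlier spots, and its other probe -0.29. The other probe also lay nearer to sham for Ifnar2 (-0.31), Plagl1 (-0.27) and Spon2 (-0.95) and was at -1.22 for Rpgrip1. Among immune genes, Ifnar2, a chain of the type I interferon receptor, was -0.57 to -0.13 in sham and -1.98 to -0.39 after 3 Gy, a difference of -1.03 (SE 0.27), with M013 at d21 inside the sham range. Cfp, the complement activator properdin, had a difference of -1.49 (SE 0.38), and the tetraspanin Cd81 of -1.05 (SE 0.21), but each rested on 2 of the 4 sham arrays and 4 of the 7 irradiated ones. With the outlier spots they were -0.93 and -0.62. Gal, the neuropeptide galanin, was 1.84 to 2.79 in sham and 0.30 to 2.50 after 3 Gy (difference -1.32, SE 0.40). The imprinted zinc finger gene Plagl1 had a difference of -1.05 (SE 0.29), with the sham array of M002 at d21 (0.87) inside the irradiated range. That of Rpgrip1 was -1.26 (SE 0.36), and that of the mitochondrial ribosomal gene Mrpl51 -1.45 (SE 0.38) or -1.05 with its outlier spots. Arrays did not overlap, 3 Gy lower, for 4 of the 12, beside 0.407% of all probes, and mouse means for 7 of the 8 that had every mouse, beside 6.98%; nothing is read from these counts either. With outlier spots kept, Postn and Akr1b3 did not overlap and Cfp and Mrpl51 did. Without background correction the 12 differences ran from -0.96 for Cd81 to -1.93 for Aldh1a1.

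Lists of skin cell types and pathways gave a broader view of the lower genes. Of 16 matrix and fibroblast genes tested, 15 were lower after 3 Gy and the median was -0.78, against -0.02 over all 13025 genes, of which 52.3% were lower. Unadjusted p was under 0.05 for 2 of them, Postn and Pdgfra (12.5%, beside 3.64% of all genes lower at that level), and 0 were called. Pdgfra, the receptor that marks dermal fibroblasts, had a difference of -0.73 (SE 0.31) but of 0.08 (SE 0.15) by its other probe. The small proteoglycans Lum and Dcn were at -1.27 (SE 0.85) and -0.91 (SE 0.63), and Sparc at -0.84 (SE 0.55). Fibronectin, Fn1, was at -0.07 (SE 0.22) and elastin, Eln, at -0.20 (SE 0.32). The mean of the list was 1.50 to 2.59 on the sham arrays and 0.34 to 2.08 after 3 Gy, so that the groups overlapped; the lowest array was that of M014 at d28, on which the hair follicle genes stood at 5.94. Without that array the median of the list was -0.46, and without the 3 arrays that stood apart -0.61, and without background correction it was also -0.61. In a biopsy, fewer cells of a type and less RNA per cell cannot be told apart.

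All 13 macrophage genes tested were lower after 3 Gy, with a median of -0.71, a range of -1.13 to -0.11 and 0 at an unadjusted p under 0.05. The median was -0.15 at d21 and -1.0 at d28. The receptor Csf1r was at -0.75 (SE 0.36), but at -0.43 and -0.08 by its other probes. Mrc1, the mannose receptor, was at -1.13 (SE 0.84), the complement gene C1qa at -0.97 (SE 0.55) and Adgre1 at -0.56 (SE 0.57). The standard errors exceed those of most genes, and the list mean ran from 2.13 to 4.01 in sham and from 0.70 to 3.53 after 3 Gy. Without M014 at d28 the median was -0.23, and without the 3 arrays -0.42, and without background correction -0.48. Adipocyte genes had a median of -0.62 (10 of 12 lower, with Lpl at -0.92 and Adipoq at -0.90) and skeletal muscle genes of -0.45 (13 of 15 lower). Without the array of M015 at d21, the adipocyte median was -0.29 and that of muscle -0.11, and without the 3 arrays that stood apart they were -0.02 and 0.08; without background correction they were -0.34 and -0.39. Mast cell genes (6 of 7 lower, median -0.44) and endothelial genes (9 of 13 lower, -0.29) also had medians below 0, while T cell genes stood at -0.02 (6 of 11 lower). By day, the medians at d21 and d28 were -0.19 and -1.02 for adipocytes, -0.40 and -0.62 for muscle, 0.13 and -1.23 for mast cells, 0.08 and -0.33 for endothelium and, of the matrix genes, -0.33 and -0.89. Without M014 at d28 the endothelial median was 0 and that of mast cells -0.33, without the 3 arrays they were -0.09 and -0.40, and without background correction -0.03 and -0.31.

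Blocking on slide or scan day changed these medians. A single slide carried both doses, M013 against M003 at d21, so that with slide as a fixed block the value is 1 array against 1, has no replicate and includes an array that stood apart. The medians then had the opposite sign, at 0.11 for matrix genes, 0.58 for macrophages, 0.34 for adipocytes, 1.13 for muscle, 0.42 for mast cells and 0.62 for endothelium. With scan day as a fixed block all 6 stayed below 0. Those of matrix (-0.41), macrophage (-0.38), muscle (-0.25) and endothelial genes (-0.05) were nearer to 0, and those of adipocytes (-0.63) and mast cells (-0.52) were not. Of the leading genes, the 18 that could be fitted with slide as a fixed block kept their sign. Spint1 (0.16), Hspa1b (0.42), Bcar1 (0.46), Trib1 (0.48), Ifnar2 (-0.26) and Postn (-0.39) were then much nearer to sham, whereas Junb (1.50) and Per1 (1.49) were about as far and Csrnp1 (2.45), Spon2 (-1.96) and Gal (-2.47) farther. How much of these differences comes from slide or biopsy depth was not tested.

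**Figure D3:**
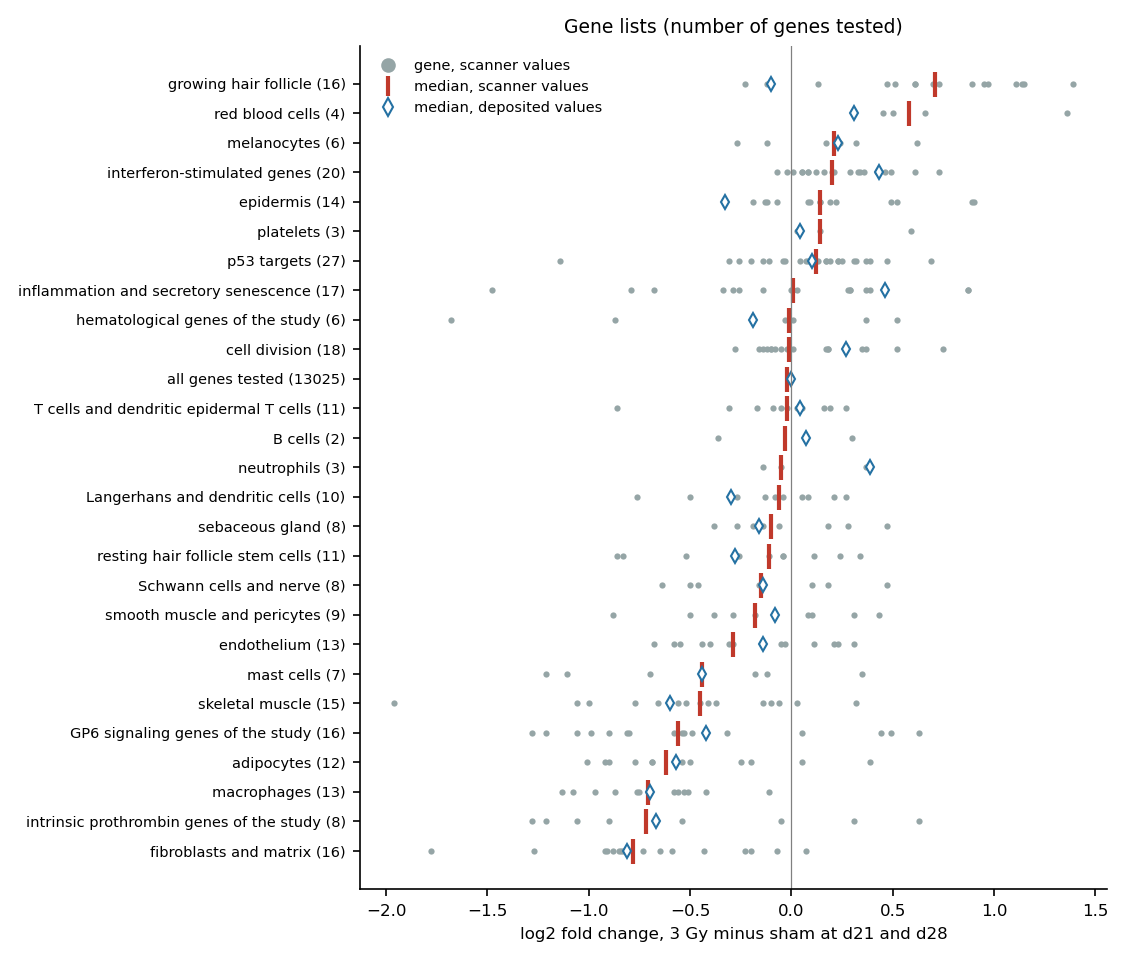
Log2 fold change of 3 Gy over sham at d21 and d28 for the tested genes of each list (grey points), with the median of the list from the scanner values (red bars) and from the deposited values (open diamonds); the number of genes tested is in brackets. Matrix (-0.78), prothrombin (-0.72) and macrophage genes (-0.71) had the lowest medians and genes of the growing hair follicle (0.71) the highest, with all genes at -0.02.

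**Figure D4:**
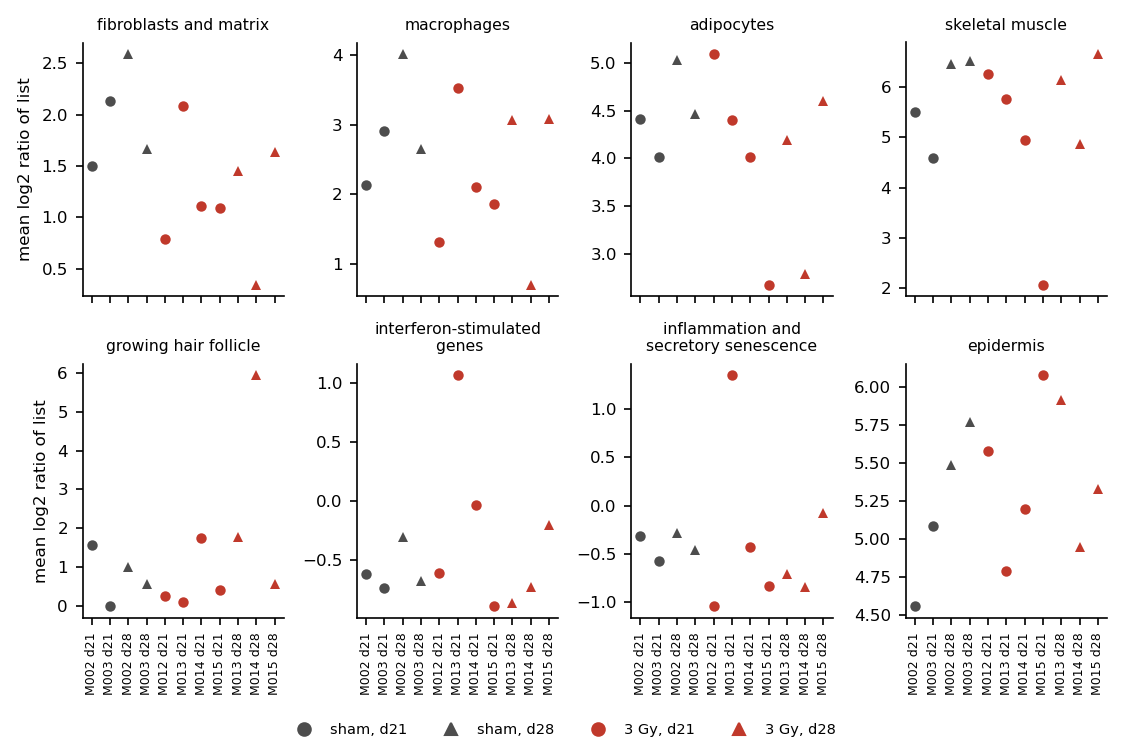
Mean log2 ratio of biopsy to reference over 8 gene lists on each of the 11 arrays, sham in grey and 3 Gy in red, d21 as circles and d28 as triangles, with values called outliers kept. The array of M014 at d28 is the highest for hair follicle genes (5.94), that of M013 at d21 for interferon-stimulated genes (1.07), and that of M015 at d21 the lowest for muscle genes (2.07).

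The genes of the GP6 signaling pathway, by which platelets bind collagen, are in this study mostly collagens, and so are those of intrinsic prothrombin activation; both lists were chosen by the study on these samples and are not independent of them. Of 16 tested GP6 genes 12 were lower, with a median of -0.56 and, by the brightest probe of each, 0 at an unadjusted p under 0.05, and of the 8 prothrombin genes 6 were lower (median -0.72). The GP6 median was -0.17 with scan day and -0.26 with slide as a fixed block, and -0.62 without the 3 arrays that stood apart; the prothrombin median was -0.51, -0.73 and -0.57, and -0.46 without M014 at d28 alone. Col3a1, the fibrillar collagen of young and healing dermis, stood at 4.53, 4.78, 5.07 and 3.65 on the sham arrays and 1.70 to 4.93, with a median of 3.34, after 3 Gy. The groups overlapped, and the difference was -1.21 (SE 0.56), with p = 0.133 in the exact permutation test over mice. The chains of collagen I gave -1.06 (SE 0.59) for Col1a1 and -1.28 (SE 0.70) for Col1a2. Col1a1 ran from 1.93 to 4.80 in sham and from 1.05 to 4.19 after 3 Gy, and its 3 probes gave -1.69 to -0.50. A dimmer probe of Col1a1 (-1.69, SE 0.42) and one of Col3a1 (-1.25, SE 0.50) did have an unadjusted p under 0.05. Col2a1 (-0.90, SE 0.67), Col15a1 (-0.81, SE 0.66), Col5a2 (-0.99, SE 0.54) and Col6a1 (-0.80, SE 0.41) were lower by less than 2 standard errors. The other probe of Col2a1 was at -0.18 (SE 0.25). Col15a1 was at -0.11 without mouse M014 and at -0.44 without background correction. The GP6 genes above sham were Col18a1 of vessel basement membranes (0.63, SE 0.34), the anchoring collagen Col7a1 (0.44, SE 0.41), the epidermal calmodulin Calm4 (0.49, SE 0.36) and Col4a4 (0.05, SE 0.13). The kallikreins of the prothrombin list, Klk7 (-0.05, SE 0.44) and Klk8 (0.31, SE 0.44), had intervals that span 0.

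Of the blood-related genes of the study, Pdgfrl, a PDGF receptor-like gene of mesenchymal cells, had log2 ratios of 2.37, 2.38, 3.32 and 1.52 in sham and -0.86 to 1.81, with a median of 0.84, after 3 Gy. Its difference was -1.68 (SE 0.52), with overlap of 1 sham array and p = 0.133 in the exact permutation test over mice. The heme scavenger hemopexin, Hpx, was 0.52 higher (SE 0.64), but a single array decided the sign: M014 at d28 stood at 3.77 and the other 10 between -0.35 and 0.99, and without it the difference was -0.05. The same held for the leukocyte protease inhibitor Slpi (0.37, SE 0.62), where M013 at d21 stood at -0.19 and all others between -3.96 and -3.10; without that array the difference was -0.08. No probe of Plg, plasminogen, passed the filter on dim probes. Pirb, the mouse counterpart of LILRB3, was at -0.87 (SE 0.68) and Hebp2 at -0.03 (SE 0.33).

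Targets of p53, the classical reporters of DNA damage, were near the sham level. Of 27 tested, 19 were higher and the median was 0.12. Cdkn1a, the cell cycle inhibitor p21, was at -0.03 (SE 0.40), Mdm2 at 0.23 (SE 0.21), Bax at 0.17 (SE 0.13) and Phlda3 at 0.47 (SE 0.31). An unadjusted p under 0.05 was reached by Tap1 (0.69, SE 0.30), Btg2 (0.39, SE 0.18) and, in the other direction, Ccng1 (-1.14, SE 0.44). The other probes of Btg2 (0.15 and -0.01) and Ccng1 (-0.31) lay nearer to sham. Interferon-stimulated genes were above 0 for 18 of 20, with a median of 0.20 and 0 at p under 0.05; Rsad2 was at 0.73 (SE 0.47) and Irf7 at 0.61 (SE 0.47). At d21 their median was 0.45, with the high array of M013, and at d28 -0.12; without that array it was 0.04 over both days. Inflammation and senescence genes had a median of 0.01. Cell division genes had a median of -0.01 (9 of 18 higher). Of these Cdc20 (0.75, SE 0.25) and Ccnb2 (0.52, SE 0.18) had an unadjusted p under 0.05 (11.1%, beside 2.91% of all genes higher at that level). Genes of the growing hair follicle were higher for 14 of 16, with a median of 0.71, but without M014 at d28 the median was 0.03, and without the 3 arrays 0.30. Krt25, an inner root sheath keratin, was at -0.21 at d21 and 3.19 at d28. Red cell genes were higher for all 4 tested, with a median of 0.58 (0.87 without the 3 arrays), and the heme synthesis gene Alas2 at 1.36 (SE 0.65); M013 at d28 had the highest level (3.19, against 0.17 to 1.71).

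The time points gave no separate set of calls. At d21 (4 arrays against 2) and at d28 (3 against 2) 0 probes were called by limma, 715 (3.09%) and 849 (3.67%) had an unadjusted p under 0.05, and the test of the difference between the days called 0, with 457 (1.98%) at p under 0.05. At d28 all 5 arrays had been scanned on the same day, whereas at d21 that of M013 was the one irradiated array scanned with the sham arrays. The leading higher genes were 0.68 to 1.74 higher at d21 and 0.71 to 1.52 higher at d28, Junb being at 1.32 and 1.48 and Per1 at 1.74 and 1.18. The collagens of types I and III were farther from sham at d21 (Col1a1 -1.87, Col3a1 -1.73) than at d28 (-0.16 and -0.63), and Bgn, another small proteoglycan, the reverse (0.00 and -1.95). For none of these was the difference between days called.

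Biopsies of the same days after 1 Gy (8 arrays) and 6 Gy (7 arrays) gave the levels of these genes at other doses. Direct comparisons that leave the sham arrays out of the contrast called 0 of 24108 probes for 3 Gy against 1 Gy (1338 at an unadjusted p under 0.05, 5.55%) and 0 for 3 Gy against 6 Gy (1581, 6.56%) by limma. The mean log2 ratio of Junb was -2.18 in sham, -1.85 after 1 Gy, -0.83 at 3 Gy and -0.79 at 6 Gy, with SD of 0.18, 0.92, 0.42 and 0.92; for Junb 3 Gy was 0.90 above 1 Gy (SE 0.42) and -0.11 from 6 Gy (SE 0.46). Hspa1b was at 0.81, 1.04, 2.26 and 1.32 in the same order, and 3 Gy was 1.20 above 1 Gy (SE 0.36) and 0.89 above 6 Gy (SE 0.37). Csrnp1 was 0.98 above 1 Gy (SE 0.23) and 0.86 above 6 Gy (SE 0.24), and Atf3 1.35 (SE 0.35) and 0.83 (SE 0.36). Postn was at 4.51 in sham, 3.16 with 1 Gy, 2.70 with 3 Gy and 3.98 with 6 Gy, the 3 Gy level being -1.20 from 6 Gy (SE 0.50) and -0.42 from 1 Gy (SE 0.48). Col3a1 was at 4.51, 4.17, 3.29 and 4.41, with -0.87 (SE 0.38) against 1 Gy and -1.09 (SE 0.40) against 6 Gy. Plagl1 (1.76, 0.78, 0.71 and 0.94) and Rpgrip1 (1.38, 0.55, 0.17 and 0.36) had means below sham at all 3 doses, with differences of -0.08 (SE 0.31) and -0.43 (SE 0.31) between 3 Gy and 1 Gy. The levels of Col3a1 and of periostin did not follow the order of the doses.

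The authors' normalized log2 values of the same arrays had less spread. The median standard error of a difference was 0.12, and 3261 of 23120 probes (14.1%) had an unadjusted p under 0.05, but 0 were called for 3 Gy against sham over both days (lowest adjusted p 0.103). The correlation of biopsies of a mouse was negative in this fit (-0.135), which narrows the error of a contrast between mice; without mouse as a block 11.6% had an unadjusted p under 0.05. All 24 leading genes kept their direction, at 0.44 to 1.15 for the higher and -1.41 to -0.41 for the lower ones, with Junb at 1.15, Per1 at 1.09, Postn at -1.41, Aldh1a1 at -1.22, Col3a1 at -1.29 and Pdgfrl at -0.98. The median of immediate early genes was 0.83. That of matrix genes was -0.81 (9 of 16 lower at an unadjusted p under 0.05) and that of macrophage genes -0.70 (6 of 13). The lists chosen by the study on these samples stood at -0.42 for GP6 genes (7 of 16) and -0.67 for prothrombin genes (5 of 8). Of all 13025 genes 1101 were lower and 998 higher at that level. The sources parted in genes of the growing hair follicle (-0.10 in place of 0.71), epidermal genes (-0.33 in place of 0.14), inflammation and senescence genes (0.46 in place of 0.01, with 6 of 17 higher at p under 0.05) and cell division genes (0.27 in place of -0.01, with 11 of 18 higher). Neutrophil genes (0.39 in place of -0.05, 3 genes) and interferon-stimulated genes (0.43 in place of 0.20) were also higher there. At d21 1 probe (0.00433% of those tested) was called, that of the hair follicle stem cell gene Lgr5 (-1.95, adjusted p = 0.0497 in limma). In the scanner values it was at -1.52 at d21; over both days it was at -0.86 (SE 0.44), beside -1.16 in the deposited values.

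In the same deposited values 36 probes (0.149% of those tested) passed both the adjusted p and the 2-fold change for 3 Gy against 6 Gy. Of these 9 were higher and 27 lower after 3 Gy, beside 0 calls in the scanner values. Without mouse as a block (correlation -0.091) the deposited values gave 32. By adjusted p alone, under 0.05 in limma, 2039 of 24108 probes differed between 3 Gy and 6 Gy. Against 1 Gy there were 34, of which 0 changed 2-fold. In the scanner values both counts by adjusted p alone were 0. The genes named here were picked after their values were seen. Among the lower ones were Sparc (-1.06), Dcn (-1.08), Pdgfrl (-1.02), Cthrc1 (-1.17), the small proteoglycans Aspn (-1.32), Omd (-1.13) and Ogn (-1.13), Tnmd (-1.58) and the growth factor Igf1 (-1.05), all with an adjusted p between 0.0074 and 0.023 in limma. The macrophage receptor Mrc1 (-1.01) and the clotting factor gene F13a1 (-1.20) were also called, as were the muscle genes Myoz2 (-1.32), Hspb3 (-1.52) and Nmrk2 (-1.37) and, farthest of all, Tceal7 (-1.94). The higher ones included genes of the epidermis, the caspase Casp14 (1.18), the tight junction gene Cldn4 (1.06), Lad1 of the basement membrane zone (1.23) and Sfn (1.04). In the scanner values Pdgfrl differed by -1.17 (SE 0.43) and Cthrc1 by -1.06 (SE 0.52) between these doses, without a call. The 36 calls thus rest on the deposited table, whose processing steps are unknown.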

How the data were processed

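The authors deposited median spot and background intensities for both dyes of each array as extracted by Agilent Feature Extraction (10.10.1.1 per the file headers of these arrays, 11.0.1.1 per the labels), without normalization. The deposited log10 ratio of Cy5 over Cy3 was made by the scanner software. A table of log2 values that the authors normalized was deposited as well, made by steps not given in the sources used here. Its direction and log scale were set against the scanner values (correlation 0.881 to 0.967 per array); its column medians were -0.014 to -0.001 and its slope on the scanner log2 ratio 0.85 to 1.19, all with an interquartile range of 0.44 to 0.45, and how it was scaled and centered is unknown.

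From the intensities, background was corrected by normexp (offset 50) and log2 Cy5/Cy3 was normalized by loess in limma 3.58.1 (R 4.3.3). Dyes were not swapped. Control spots and spots called outliers were left out (1693 values of tested probes, 0.666%), and spots of a probe were averaged. A probe was tested where 50% or more of the arrays of either dose had it well above background. It also needed a value not called an outlier on 50% or more of the arrays of each dose. The same was needed on at least 1 array of each dose and day. This kept 23120 of the 23503 probes well above background. RefSeq GRCm38.p6 gave a symbol to 27198 of 41174 probes (66.1%); a gene was represented by its brightest probe. Dose was fitted by lmFit and eBayes with time point as a term and mouse as a random block (duplicateCorrelation, 0.061). The labels pair biopsies of a mouse; deviations of the same mouse correlated between d21 and d28 at -0.229 to 0.242. Named genes were, per direction, the 12 of smallest p with a fold change of at least 2, up to 4 per list, and those listed by the study. Members and lists were chosen with earlier results of these data known. Scripts were tested on simulated data. Alternatives covered normalization, background, filters, blocks and leaving out each mouse. Samples were separate biopsies, and the number of arrays limits precision.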

Additional observations from a re-analysis of the deposited data

Results flagged for a closer look

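A sample far from the others of its dose was found in 9 of 110 groups of values examined (8.18%). The leading genes were picked on these arrays and some lists share genes, so this share is not set against a chance rate. In sham, Postn stood at 5.87 on the array of M002 at d28, with the next at 4.18, and Plagl1 at 0.87 on that of M002 at d21, with the next at 1.97 (log2 ratios to the reference). After 3 Gy, the array of M014 at d28 stood apart in Hpx (3.77, next 0.32) and in the mean of the growing hair follicle genes (5.94, next 1.76). That of M013 at d21 stood apart in Slpi (-0.19, next -3.20), in Rpgrip1 (1.59, next 0.39) and in the mean of the inflammation genes (1.35, next -0.08). The array of M015 at d21 had the lowest mean of skeletal muscle genes (2.07, next 4.87), and that of M013 at d28 the highest mean of red cell genes (3.19, next 1.71). The other d21 or d28 array of the same mouse did not share these values: Slpi stood at -3.82 in M013 at d28 and Hpx at -0.04 in M014 at d21.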

How the results depend on the processing

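For 3 Gy against sham over both days, 0 probes were called under each alternative tried but the fit of all 82 arrays. These alternatives included scaling, background correction, dim-probe filters and blocks. The fit of all 82 arrays had no block on mouse and called 12. At d21 the deposited values called 1, with or without the replicate block on mouse, and at d28 leaving out 1 mouse gave 0 to 9 calls, the 9 without sham replicate M002, which leaves 1 sham array at d28 that is assumed to vary like the other groups. Between 3 Gy and 6 Gy the deposited values called 36 (32 without the block), and leaving out 1 mouse gave 0 to 1, the 1 without M014. Without the replicate block on mouse 0 were called (lowest adjusted p 0.801), and the same block left out of the other fits of scanner values changed no count of calls. Probes changed 2-fold or more at an unadjusted p under 0.05 were 52 higher and 68 lower, but 500 and 301 with the ratio computed by the scanner, 29 and 44 with arrays centered on their median, 181 and 55 without background correction, and 174 and 418 without sham mouse M002. Leaving out 1 mouse, Hpx ranged from -0.05 (without M014) to 0.91 and Slpi from 0.00 (without M013) to 0.67; without the array of M014 at d28 Hpx was at -0.05, without that of M013 at d21 Slpi was at -0.08, and without the 3 arrays that stood apart they were at -0.02 and -0.06. The causes were not tested beyond the arrays named. Of 871 values of single genes under alternatives, 856 kept their direction and side of the threshold. Alternatives that leave out single arrays, keep outlier spots, block on scan day as a fixed term or drop the mouse block from the deposited values were chosen after seeing the data. Signal over background limits dim probes, and 2 sham mice limit every comparison with sham.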
